A study of Rattus norvegicus with 23 samples.

Results

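The comparison described here is the change in transcript levels over the first 12 h on a soft substrate in adult rat hippocampal neural stem cells. It rests on 5 of the 23 libraries of the series, chosen by their titles: 2 from cells on soft at 12 h (replicates 1 and 3) and 3 from cells on soft at 0 h (replicates 1, 2 and 3). Cells of both groups came from hippocampus of wild-type adult females, and the labels list 1 medium for every sample, at 0 h as well: 1 uM retinoic acid and 1% FBS (fetal bovine serum) in DMEM-F12 that held N2 supplement, described as a mixed differentiation medium. The 6 libraries of cells on a stiff substrate at 0 h and 12 h (3 each) share the same genotype, sex, tissue and medium and serve for comparison. The labels used here state neither the pressure value of a substrate, nor how the cells were kept before 0 h, nor whether replicates came from separate cultures. A p-value below therefore reflects the spread among libraries, which may be technical. The titles number the libraries Rd1 to Rd3, read here as replicates 1 to 3. What Rd stands for is not stated in the labels used here. Replicate 2 of soft 12 h is not analysed here.

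Adult hippocampal neural stem cells divide to renew themselves and give rise to neurons and glia. Retinoic acid enters the cell, binds nuclear receptors and switches on target genes through them, and it is widely used to start differentiation of neural progenitors. Serum carries growth factors and adhesion proteins and tends to favour astrocytes, while the stiffness of the substrate is known to bias the choice between neuronal and glial fates in such cells.

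Each transcript was sequenced from its 3' end, so a level is given in CPM and not per length. CPM are counts per 1000000 of a library total that was adjusted by a scaling factor for each library. The 5 libraries held 4145040 to 6519349 counts, within the 2462360 to 6811157 of the whole series. The deposited table names genes by Ensembl identifier alone, and 0 of its 32883 identifiers could be matched to a gene symbol in the reference table used here. Stem cell, neuronal and glial markers, pathway lists and the translation factor of the series title are therefore not reported, and the labelled cell type was not checked. The genes are described by size, level and course, and 4 of them by identifier: the 2 risen and the 2 fallen genes with the smallest p-values.

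Over the first 12 h on soft, 3455 of the 11857 genes tested changed, which is 29.1% (edgeR's quasi-likelihood test, Benjamini-Hochberg adjusted p under 0.05). Of these, 1804 rose, 15.2% of the genes tested, and 1651 fell, 13.9%. Most changes were moderate, with a median rise of 0.63 and a median fall of -0.70 on the log2 scale, and the median over all genes tested was 0.02. More than 2-fold changes were found in 510 risen and 493 fallen genes. More than 4-fold changes were found in 185 risen and 96 fallen genes, of which 94 and 2 were under 1 CPM at 0 h; among genes at or above that level the numbers were 91 and 94. These are bulk samples, in which fewer cells of a type and less RNA per cell cannot be told apart. The calls leaned on the 12 h library of replicate 3: without it 2150 genes were called, 1147 risen and 1003 fallen, with the remaining 12 h library assumed to vary like the other groups. After random thinning of the counts to the lowest library total, 2209 genes were called, 1060 of them risen.

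**Figure D1:**
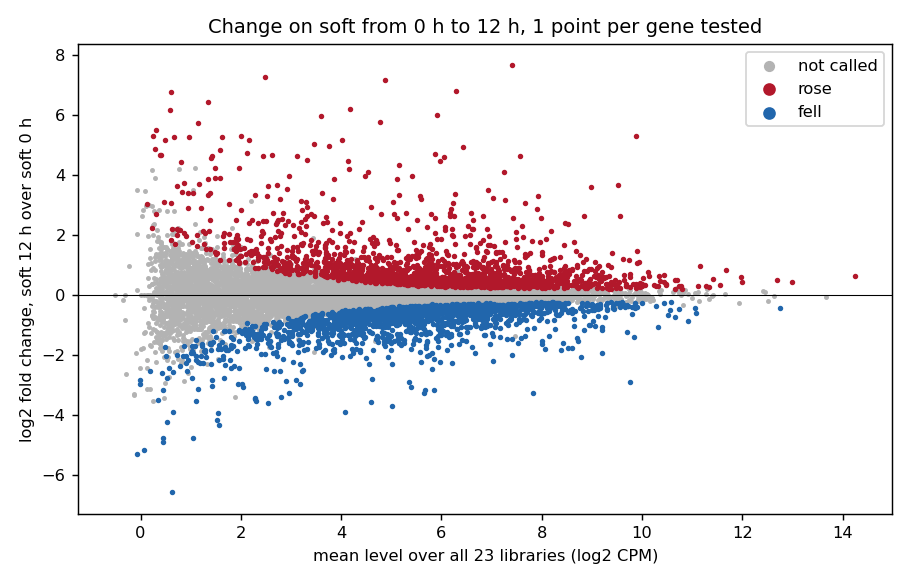
Log2 fold change on soft from 0 h to 12 h (vertical axis) against the mean level over all 23 libraries in log2 CPM (horizontal axis), 1 point per gene tested. The 1804 risen genes are red and the 1651 fallen genes blue, with 185 points more than 4-fold above the line and 96 below it; of these 94 and 2 are genes under 1 CPM at 0 h.

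The CPM ranges of the 2 soft 12 h and 3 soft 0 h libraries did not overlap for 1773 of the 1804 risen genes and for 1618 of the 1651 fallen genes. The calls rest on the same libraries, so ranges set apart were likely for called genes. Over all genes tested, 27.1% had the 12 h range wholly above the 0 h range and 24.3% wholly below it. Of the 8402 genes that were not called, 5910 had a 95% interval that lay within a 2-fold change in either direction, and 3789 within 1.5-fold. For the remainder the interval did not exclude a change of that size. Among genes with a mean of at least 10 CPM, the median SD of log2(CPM + 1) was 0.13 over the 3 soft 0 h libraries and 0.111 over the 2 soft 12 h libraries (8411 genes).

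Among the risen genes, ENSRNOG00000013794 had the smallest p. Its level at 0 h on soft was 17.05, 23.23 and 20.77 CPM in replicates 1, 2 and 3, and at 12 h it was 772 and 845 CPM in replicates 1 and 3. All 12 h libraries thus lay far above all 0 h libraries. The rise was 39.5-fold (log2 fold change 5.30, SE 0.134, edgeR adjusted p = 1.19e-24), from 20.3 ± 3.11 CPM (SD, n = 3) to 808 ± 51.5 CPM (SD, n = 2). It went on to 1448 ± 56.6 CPM at 24 h and 1493 ± 86.5 CPM at 36 h on soft (SD, n = 3 each), and the step from 24 h to 36 h did not pass the test (log2 fold change 0.05, SE 0.0976). On stiff the same gene went from 18.9 ± 5.57 to 720 ± 11.1 CPM by 12 h (SD, n = 3 each). The difference between the 12 h changes was 0.07 on the log2 scale (SE 0.186) and did not pass the test.

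ENSRNOG00000015736 was close to the limit of detection at 0 h and well above it 12 h later. On soft it had 2, 5 and 4 counts at 0 h in replicates 1, 2 and 3, or 0.392, 0.812 and 0.966 CPM, and 668 and 1071 counts at 12 h in replicates 1 and 3, or 132 and 168 CPM. The fitted rise was 203-fold (log2 fold change 7.67, SE 0.212, edgeR adjusted p = 1.08e-23). With only 11 counts at 0 h in all, the ratio of the summed counts per total, 205, has an exact 95% interval of 114 to 411, which covers counting error only. The SE, read back from the F statistic, is narrower than that interval. Its level rose further to 233 ± 17.9 CPM at 24 h and 291 ± 1 CPM at 36 h on soft (SD, n = 3 each), and the step from 24 h to 36 h passed the test (log2 fold change 0.33, SE 0.0983, edgeR adjusted p = 0.0311). On stiff it reached 137 ± 5.44 CPM at 12 h from 1.13 ± 0.66 CPM (SD, n = 3 each), and the difference between substrates, 0.77 on the log2 scale (SE 0.502), did not pass the test.

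The fallen genes with the smallest p-values followed unlike courses. ENSRNOG00000016552 was an abundant transcript at 0 h, with 1240, 1304 and 1107 CPM on soft in replicates 1, 2 and 3, and at 12 h it stood at 365 and 282 CPM in replicates 1 and 3. The groups did not overlap, and the fall was 3.77-fold (log2 fold change -1.91, SE 0.108, edgeR adjusted p = 2.22e-15). Its soft level stayed far below that of 0 h, at 398 ± 7.08 CPM at 24 h and 384 ± 30.8 CPM at 36 h (SD, n = 3 each). Stiff libraries gave 1194 ± 55.4 CPM at 0 h and 281 ± 24 CPM at 12 h (SD, n = 3 each), and the difference between the changes was 0.17 on the log2 scale (SE 0.137), which did not pass the test.

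ENSRNOG00000027006 fell on soft by 12 h and was higher again at 24 h, but stayed below its 0 h level. Its soft values were 322, 317 and 322 CPM at 0 h in replicates 1, 2 and 3, and 44.3 and 23.4 CPM at 12 h in replicates 1 and 3. The 0 h libraries were nearly level with each other, and both 12 h libraries lay far below them (log2 fold change -3.26, SE 0.184, edgeR adjusted p = 1.95e-15). At 24 h the soft libraries stood at 256, 256 and 193 CPM in replicates 1, 2 and 3. At 36 h they stood at 162, 170 and 180 CPM. The 24 h level was still below that of 0 h (log2 fold change -0.44, SE 0.134, edgeR adjusted p = 0.00655). The 36 h level was lower still (log2 fold change from 0 h -0.91, SE 0.138, edgeR adjusted p = 1.21e-06). On stiff the 12 h libraries held 341, 369 and 316 CPM and overlapped the 0 h libraries, which held 237, 301 and 360 CPM. The change by 12 h was thus lower on soft than on stiff by a log2 difference of -3.46 (SE 0.225, edgeR adjusted p = 3.07e-12). Later the gene fell on stiff too. Its log2 fold change from 0 h there was -0.49 by 24 h (SE 0.134, edgeR adjusted p = 0.00295). By 36 h it was -1.06 (SE 0.139, edgeR adjusted p = 7.27e-08).

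**Figure D2:**
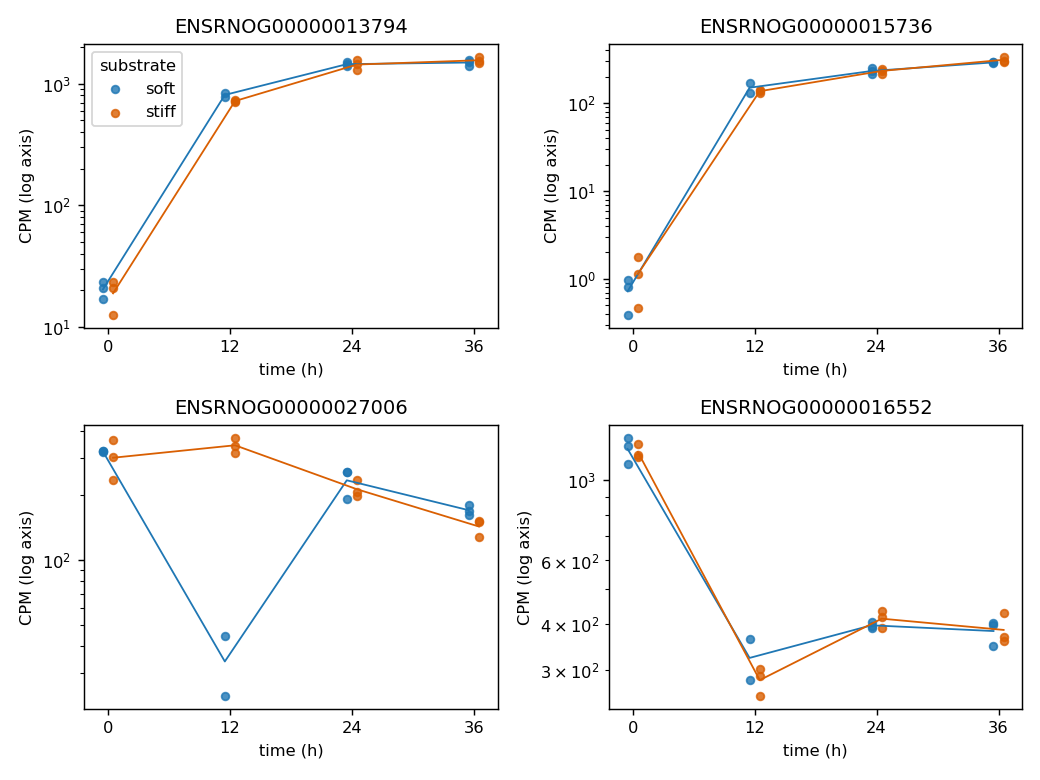
Level in CPM (vertical axes, log scale) against time in h (horizontal axes) for the 4 named genes, with 1 point per library and lines through the group means, soft in blue and stiff in orange (points are set slightly apart around each time). The soft and stiff lines lie together in 3 panels, while in ENSRNOG00000027006 the 2 soft 12 h libraries, at 44.3 and 23.4 CPM, lie below every other library.

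The risen genes gained weight in the RNA pool and the fallen genes lost it. Risen genes took 22.8%, 22.1% and 23.4% of all counts at 0 h on soft in replicates 1, 2 and 3, and 32.6% and 31.9% at 12 h in replicates 1 and 3. Fallen genes took 21%, 21.2% and 20.1% at 0 h and 13.3% and 12.9% at 12 h. These genes were chosen on the same libraries, so the shift itself is a description. In the stiff libraries, which entered the choice only through the shared filter, scaling and spread, the risen genes took 22.4% ± 1.1 of the counts at 0 h, 28.9% ± 0.493 by 12 h, 31.1% ± 0.751 by 24 h and 32% ± 0.153 by 36 h (SD, n = 3 each). The fallen genes took 21% ± 1, 16.4% ± 0.462, 15.3% ± 0.0577 and 15.3% ± 0.173 in the same stiff groups (SD, n = 3 each). For both gene groups the stiff 12 h libraries lay outside the range of the stiff 0 h libraries.

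The gain was spread over many genes. Summed over the risen genes, the mean level went up by 109384 CPM, and 104 genes made up 50% of that gain and 800 genes 90%. The 10 genes with the largest gain held 21.7% of it. The loss over the fallen genes came to 71060 CPM, with 135 genes for 50% and 875 genes for 90% of it, and the 10 largest held 14%. Both sums use CPM with a scaling factor for each library, which need not add up to 1000000. The size of the gain beside that of the loss therefore depends on the scaling. The 100 most abundant genes of each library took 23.2%, 23.3% and 23.9% of its counts at 0 h on soft and 24.9% and 24.5% at 12 h. These ranges did not overlap, but an exact two-sided permutation test of 2 against 3 libraries cannot go below 0.1, and gave p = 0.1.

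The levels at which rises and falls began are given here as a description. The 0 h libraries that set these levels also chose the genes, so risers tend to start lower and fallers higher. This limit from the choice of genes applies to every bin of 0 h level below. The risen genes had a median level of 36.7 CPM at 0 h and 59.7 CPM at 12 h, and the fallen genes 54 and 31.7 CPM. Of the 541 tested genes under 1 CPM at 0 h on soft, 109 rose, all of them more than 2-fold and 94 more than 4-fold. Genes this low have little room to fall further, and they passed the filter on low counts mostly through groups in which they are higher, so this direction was largely fixed by the choice of genes and the bin. Between 1 and 10 CPM, 309 of 3102 genes rose and 186 fell, with 225 and 164 past 2-fold and 58 each past 4-fold. Between 10 and 100 CPM at 0 h, 916 genes rose and 993 fell out of 6063, and there more fell by over 2-fold (257) than rose by as much (149). From 100 to 1000 CPM the numbers were 442 risen and 448 fallen out of 2039, with 27 risen and 66 fallen past 2-fold. At or above 1000 CPM, 28 of 112 genes rose and 22 fell, and 0 rose more than 2-fold.

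The largest folds came from scarce transcripts. A fold above 8 was fitted for 91 risen and 31 fallen genes, but only 45 and 17 of these had more than 3 counts in both groups of libraries. Over the whole table, 134 genes had 0 counts in all soft 0 h libraries and more than 3 counts at 12 h, and 162 showed the reverse. Those of them that were called are part of the risen and fallen genes counted above. Such genes can be called only in the direction of the group in which they were counted. They also passed the filter only through groups in which they had counts. The direction of these calls was thus fixed by the choice of genes, and the share called largely so. Of the 134, 20 passed the filter and 16 were called, and all 16 were counted in both 12 h libraries, at 0.335 to 3.77 counts per 1000000 of the raw total, with a median of 0.921. Set against a floor of 3 counts over the 0 h group, which is 0.194 on the same scale, they were at least 1.73-fold to at least 19.4-fold higher at 12 h. Of the 162, 5 passed the filter and 4 were called, 3 of them counted in every 0 h library; these 4, not among the named identifiers, were at least 2.83-fold to at least 9.51-fold lower at 12 h against a floor of 3 counts over the 12 h group.

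The share of genes called also went with abundance. Among the 2372 tested genes with the lowest mean level over all libraries (0.37 to 5.37 CPM) the median SE of the log2 fold change was 0.569, and 5.52% rose and 5.9% fell. Among the 2372 with the highest level (at least 91.5 CPM) the median SE was 0.105, and 27.9% rose and 18.2% fell. The 2371 genes next below, from 39.6 to 91.5 CPM, had 440 risen and 435 fallen genes. The overall surplus of risen genes was not stable: fallen genes were the more numerous with DESeq2's size factors in edgeR (1679 risen, 1747 fallen), with DESeq2 itself (1629 and 1699), with unscaled totals (1482 and 1943), without soft 0 h replicate 3 (1483 and 1820), in a fit of the soft 0 h and 12 h libraries alone (1558 and 1599), in the 4 libraries of replicates 1 and 3 with a replicate block (1525 and 1703) and after thinning (1060 and 1149).

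Replicates 1 and 3 each have a soft library at 0 h and at 12 h, and their changes can be read apart, with no library in common. Over all genes tested the log2(CPM + 1) change had a median of 0.02 in replicate 1 and 0.02 in replicate 3, and 72.4% of genes moved the same way in both. The changes correlated across genes with Pearson's r = 0.685, a description only, since genes are no replicates. Among the 2372 most abundant genes r was 0.927 with 82% of genes moving the same way, and among the 2372 least abundant r was 0.392 with 60.8%. Genes that had risen on stiff, a comparison of stiff libraries within the shared fit, can be followed in the same way. Of these 1395 genes, 1238 went up in both soft pairs and 46 went down in both, with medians of 0.62 and 0.59, while of all 11857 genes tested 4562 went up in both and 4026 went down in both. Of the 1156 genes that had fallen on stiff, 1006 went down in both soft pairs and 24 went up in both, with medians of -0.47 and -0.50.

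**Figure D3:**
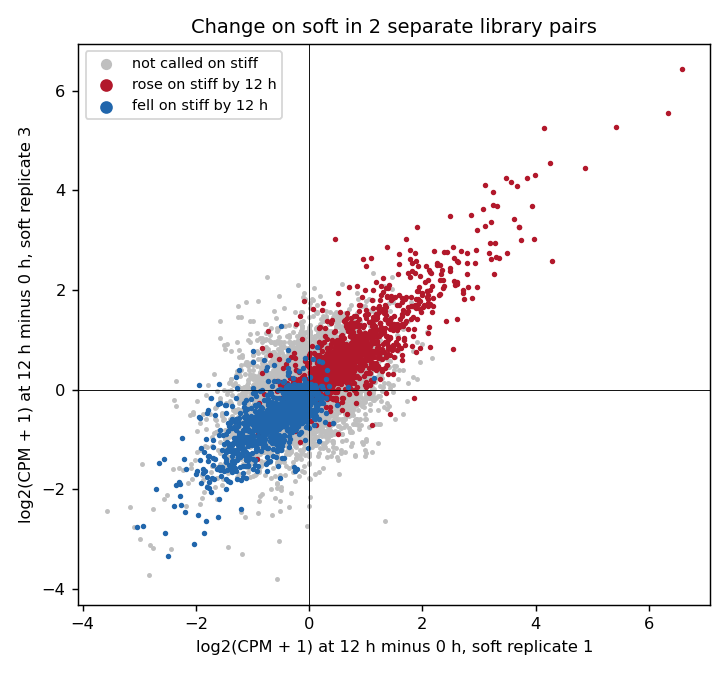
Change in log2(CPM + 1) from 0 h to 12 h on soft in replicate 1 (horizontal axis) and replicate 3 (vertical axis), 1 point per gene tested, coloured by the call in the stiff libraries. Of the 1395 genes that rose on stiff (red), 1238 lie in the upper right field, and of the 1156 that fell on stiff (blue), 1006 lie in the lower left field.

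The stiff libraries show how much of the early soft change was also seen on the other substrate. On stiff, 2551 genes changed over the first 12 h, 21.5% of those tested. Of the 1804 genes that rose on soft, 1007 (55.8%) also rose on stiff, against 11.8% of all genes tested. Of the 1651 genes that fell on soft, 713 (43.2%) also fell on stiff, against 9.75% of all. Only 8 genes were called in opposite directions, and for all 8 the difference between substrates passed the test as well. That test is built from the same changes in the same fit, so passing it was likely from the start. The 1007 shared risers had median log2 changes of 0.83 on soft and 0.78 on stiff, and the 713 shared fallers -0.75 and -0.67. The 796 genes called as risen on soft and not called on stiff had a smaller median on soft, 0.50, and 0.20 on stiff.

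A call on 1 substrate and not on the other does not show a difference, and most of these genes did not pass the test of the difference itself. The change by 12 h differed between substrates in 222 genes, 1.87% of those tested. It was lower on soft in 215 of them (1.81% of those tested) and higher on soft in 7 (0.059%). Of the 1651 genes that fell on soft, 193 (11.7%) had a lower change on soft than on stiff, while of the 1804 that rose, 6 had a higher one. Both shares use the soft libraries that also chose the genes. Of the 193, 170 were not called on stiff, 16 fell on stiff too and 7 rose there. Among genes with no called difference, the 95% interval of the difference lay within 2-fold for 77% of the risen and 69.9% of the fallen genes, and for the others it did not exclude a 2-fold difference.

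The 215 genes with a lower change on soft had a median log2 change of -0.99 on soft and 0.06 on stiff. Their median level was 71.2 CPM on soft at the start, 39.6 CPM at 12 h, 76.6 CPM by 24 h and 81.5 CPM by 36 h, and 75.5, 81.3, 70.8 and 79.9 CPM at the same times on stiff. The soft 12 h group, which helped to choose these genes, was thus the low point among the 8 groups. In 106 genes with a called difference in this direction the difference exceeded 2-fold. The counts were sensitive to single libraries: without soft 12 h replicate 3 the difference was called in 87 genes, 86 of them lower on soft, and without stiff 0 h replicate 1 in 142, of which 139 were lower on soft. The stiff 12 h libraries were also shallower, at 2462360 to 4803755 counts against 5428086 and 6519349 for soft 12 h; the part of depth in this difference was not tested.

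**Figure D4:**
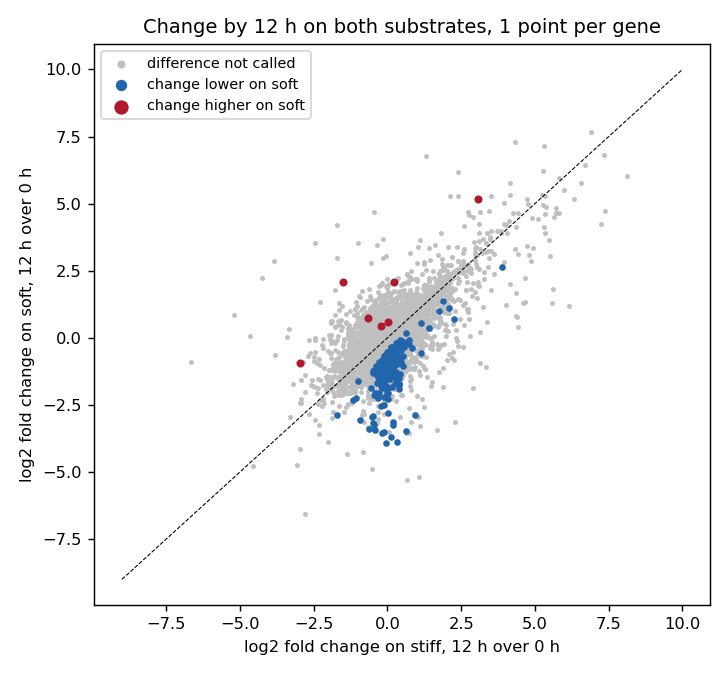
Log2 fold change from 0 h to 12 h on stiff (horizontal axis) and on soft (vertical axis), 1 point per gene tested, with the dashed line marking equal change. The 215 genes with a lower change on soft (blue) lie below the line, mostly near 0 on the stiff axis, and the 7 with a higher change on soft (red) lie above it.

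Later times were read in comparisons that contain neither the soft 0 h nor the soft 12 h libraries, although all libraries share the filter and the estimate of spread. On stiff from 0 h to 24 h, 1267 of the 1804 soft risers (70.2%) rose, against 25.9% of all genes tested, and 92 (5.1%) fell, against 25.4%. Of the 1651 soft fallers, 1057 (64%) fell on stiff by 24 h and 79 (4.78%) rose. By 36 h on stiff 1244 of the risers had risen (69%, against 29.2% of all) and 157 had fallen (8.7%), while 975 of the fallers had fallen (59.1%, against 28.3% of all) and 158 had risen (9.57%). The stiff comparisons share their 0 h libraries with each other. The median log2 changes of the soft risers on stiff were 0.43 by 12 h, 0.63 by 24 h and 0.69 by 36 h, and those of the soft fallers -0.33, -0.53 and -0.53, beside 0.01 for all genes at each time. When soft 12 h replicate 3 was left out of the choice, 836 risers rose and 646 fallers fell on stiff by 24 h, and 826 and 594 by 36 h, out of the shorter lists of 1147 and 1003 genes; 46 and 98 of the fallers then rose by 24 h and 36 h. The opposite calls among risers were fewer without soft 12 h replicate 1 (28 by 24 h and 70 by 36 h) and without soft 0 h replicate 3 (52 and 104).

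On soft itself the 24 h and 36 h levels are set against the same 0 h libraries, so their values are only given side by side. By 24 h on soft 5839 genes had changed (49.2% of those tested). The median log2 change of the 1804 risers was 0.63 by 12 h, 0.65 by 24 h and 0.64 by 36 h on soft, and that of the 1651 fallers was -0.70, -0.46 and -0.42. The step from 24 h to 36 h on soft compares other libraries than those of 0 h and 12 h, within the same fit. In it, 100 risers rose (5.54%, against 4.66% of all genes tested) and 138 fell (7.65%, against 4.33%), and 154 fallers rose (9.33%) and 72 fell (4.36%). The risers therefore had close to the background share of late rises, and in both groups the more frequent late change was opposite to the early one. The count of 138 became 217 with the replicate number as a block. Without soft 12 h replicate 3, 66 of the risers rose and 38 of the fallers fell in this step.

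**Figure D5:**
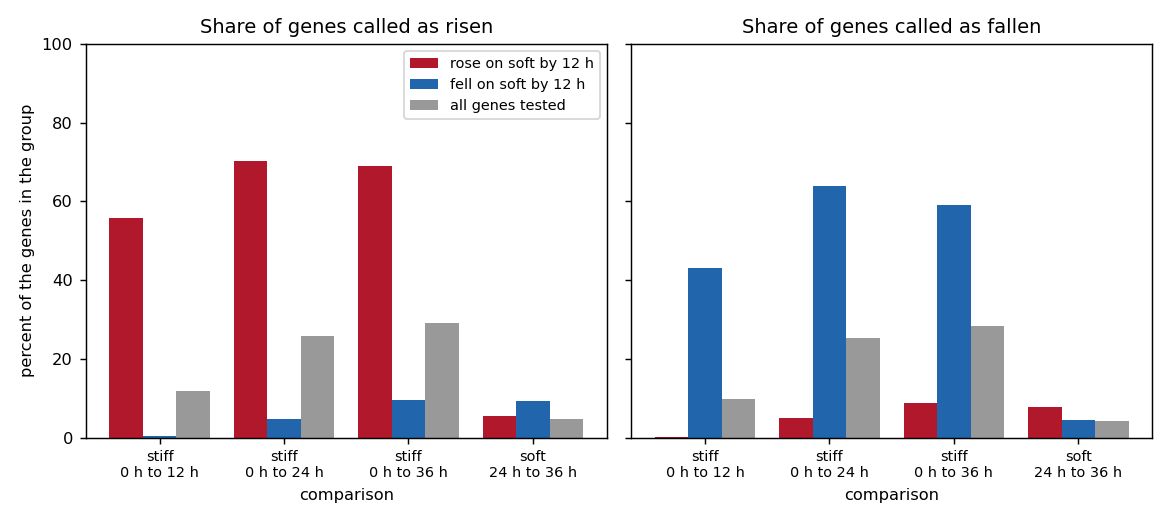
Percent of genes called as risen (left) or fallen (right) in 4 comparisons whose groups hold no soft 0 h or 12 h library, for the 1804 genes that rose (red) and the 1651 that fell (blue) on soft by 12 h and for all 11857 genes tested (grey). On stiff the red bars exceed the grey ones among risen genes (55.8% against 11.8% by 12 h), and for soft 24 h to 36 h all bars lie under 10%.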

How the data were processed

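Per the labels' protocols, total RNA was column-purified free of genomic DNA, and QuantSeq FWD libraries were prepared from it. The authors deposited whole-number counts per Ensembl gene, not normalized, 1 column per library. HISAT2 2.1.0, HTSeq, FastQC and rn6 are named in the submitters' processing notes. Annotation release and strand setting: not given in the sources used here. Reads of overlapping genes or near-identical gene copies may be mixed. Of 32883 identifiers, 11857 passed edgeR's filterByExpr (minimum count 10, minimum total 15). 1 fit of 8 group means to all 23 libraries used edgeR 4.0.16 (R 4.3.3), TMM factors and the quasi-likelihood F test, with Benjamini-Hochberg adjustment over all genes tested. CPM use TMM-scaled totals, the SE follows from the F statistic, and intervals use the fit's degrees of freedom. Replicate pairs differed by more than counting noise (chi-square per degree of freedom 2.42 to 6.81), so none was treated as 1 library deposited more than once; this does not show separate cultures.

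The comparisons and gene lists were chosen with earlier results of these data known. The rule for named genes was the 2 risen and 2 fallen identifiers with the smallest p, since none of the 34 gene lists could be applied without symbols. For the same reason no sequence is shown. The fits were also run on simulated data with known changes. Fewer genes changed there than were called on soft here, so this is no check at that scale of change. Alternatives were other scalings and filters, DESeq2 1.42.0, the replicate number as a block, fewer libraries and thinning. Figures were drawn with matplotlib 3.10.9.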

Additional observations from a re-analysis of the deposited data

Results flagged for a closer look

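The change over the first 12 h differed between the soft and the stiff substrate, by a test of the difference itself, for 1 of the 4 named genes and for 222 genes in all. ENSRNOG00000027006 had a log2 difference of -3.46 (soft minus stiff, SE 0.225, edgeR quasi-likelihood adjusted p = 3.07e-12): its 2 soft 12 h libraries, at 44.3 and 23.4 CPM, lay below all 3 stiff 12 h libraries, which held 316 to 369 CPM. The change was lower on soft in 215 genes and higher on soft in 7. The count of 215 was 86 without soft 12 h replicate 3 and 139 without stiff 0 h replicate 1. The count of 7 was less steady: it was 1 without soft 12 h replicate 3, 18 without soft 12 h replicate 1, 3 without soft 0 h replicate 2, 3, 18 or 4 when stiff 0 h replicate 1, 2 or 3 was left out, and 3 or 2 when stiff 12 h replicate 1 or 2 was. It was 41 with no filter on low counts, 19 with the replicate number as a block and 11 with DESeq2.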

How the results depend on the processing

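The 4 named genes kept their direction and their call in all 64 alternative values. They were chosen by the smallest p in the main fit, and the alternatives reuse the same libraries. A kept call was therefore likely and says little about the other genes. Of 128 alternative values of the main counts, 121 were within 1.5 times the reported count. With counts thinned to the smallest total, 2209 genes changed on soft by 12 h, 1060 of them risen. Leaving out 1 library gave 2150 to 3303 changed genes on soft by 12 h (1147 to 1500 risen, 1003 to 1820 fallen) and 87 to 278 genes with a difference between substrates; the lowest values came without soft 12 h replicate 3, where 1 library stands for the 12 h group. Leaving out soft 12 h replicate 1 also left 1 library in that group, and fewer genes were then called than in the main fit as well. In the main fit 52.2% of the called genes were risen, and 43.3% with unscaled totals. Unscaled totals also lowered the soft risers that fell on stiff to 49 by 24 h and 91 by 36 h. The causes were not tested. With the replicate number as a block, 3578 genes changed on soft and 2892 on stiff by 12 h, and 287 differed between substrates. In the 4 soft libraries of numbers 1 and 3 alone, 3228 changed with the block. Deviations from the group means of same-numbered soft 0 h and 12 h libraries correlated at 0.037 and 0.109. Across all groups the median was 0.055 for 77 pairs of the same number (-0.087 to 0.148). For 154 pairs of different numbers it was -0.028 (-0.168 to 0.099). The numbers thus went with a small shared deviation. It was weak, and the main fit did not pair the samples by number. With 2 libraries at 12 h, the 95% interval lay within 1.5-fold for only 45.1% of the 8402 genes not called on soft. For genes with no called difference between substrates, it did so for 42.6% of the risen and 33.3% of the fallen genes. For the others a 1.5-fold change or difference was not excluded.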
